A study of Mus musculus with 12 samples.

Results

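The 10 genes described here, Fgf4, Fgf8, Fgf15, Fgf17, Fgfr1, Fgfr2, Spry2, Spry4, Dusp6 and Etv4, were chosen by name as ligands, receptors, feedback inhibitors and a target of fibroblast growth factor (FGF) signalling. They are 10 of the 46517 genes listed in the count tables, and all 10 were among the 15673 genes that passed the filter on low counts and were tested. RNA was sequenced from mouse embryonic stem cells (ESCs) of a C57BL/6 line that carries EGFP at the Eomes locus, a reporter shared by every sample. The wild-type (WT) line was compared with a Meteor knock-out (KO) line, in which CRISPR-Cas9 nickase had removed an enhancer upstream of Eomes together with the start of its long non-coding RNA. Each line was collected as undifferentiated ESCs at day 0 and as embryoid bodies at day 3, with 3 replicates in each of the 4 groups. Edited clones were picked individually, and the labels do not say whether the 3 KO replicates come from 1 clone, so a difference between the lines and a difference between clones cannot be told apart. Nothing in the labels says that replicates were separate differentiations, so p-values measure the spread between these samples, which may be technical.

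FGF ligands bind receptor tyrosine kinases at the cell surface and, through RAS, RAF and MEK, activate the kinase ERK. In ESCs Fgf4 is a ligand that the cells themselves make, and its signal through Fgfr1 and Fgfr2 prepares the cells to leave the undifferentiated state. As epiblast cells enter the primitive streak, Fgf8 is made there and is needed for cells to migrate out as mesoderm. Active ERK switches on its own brakes, among them Spry2 and Spry4, which act upstream of ERK, and Dusp6, a phosphatase that removes phosphate from ERK, and also switches on transcription factors of the PEA3 group such as Etv4.

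Of the 4 members for which a promoter was held, the sequences of 3 are shown, a ligand, an upstream brake and the ERK phosphatase. The data bear on the transcript levels of these genes, and ERK acts on transcription through ETS factors such as Etv4. RefSeq promoters of GRCm38.p6, reaching 250 bases before and 50 after the start, were held for 4 of the 10 members, Fgf4, Spry2, Dusp6 and Fgfr2. Capitals mark the ETS core CGGAA and the GC box GGGCGG, each searched on both strands (TTCCG and CCGCCC).
Fgf4, chr7:144861136-144861435, plus strand: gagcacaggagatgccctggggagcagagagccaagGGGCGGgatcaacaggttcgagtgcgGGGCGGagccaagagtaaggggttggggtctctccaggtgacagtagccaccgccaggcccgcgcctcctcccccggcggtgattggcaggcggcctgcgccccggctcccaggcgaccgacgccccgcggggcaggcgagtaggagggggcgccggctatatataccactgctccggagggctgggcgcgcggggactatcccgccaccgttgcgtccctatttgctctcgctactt
Spry2, chr14:105896770-105897069, minus strand: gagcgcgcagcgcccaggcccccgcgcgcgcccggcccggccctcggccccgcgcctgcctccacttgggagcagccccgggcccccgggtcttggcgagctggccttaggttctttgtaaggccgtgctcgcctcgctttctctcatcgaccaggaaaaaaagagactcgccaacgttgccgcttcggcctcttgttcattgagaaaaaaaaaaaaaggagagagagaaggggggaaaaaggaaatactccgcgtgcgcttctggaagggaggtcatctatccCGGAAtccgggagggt
Dusp6, chr10:99262981-99263280, plus strand: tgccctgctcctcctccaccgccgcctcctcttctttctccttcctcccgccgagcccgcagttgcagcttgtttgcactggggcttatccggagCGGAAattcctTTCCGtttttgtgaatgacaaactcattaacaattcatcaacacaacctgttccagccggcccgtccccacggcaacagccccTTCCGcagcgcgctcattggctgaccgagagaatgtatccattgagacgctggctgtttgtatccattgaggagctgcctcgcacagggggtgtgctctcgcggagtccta
The Dusp6 window held 3 CGGAA matches and no GC box. The Spry2 window held 1 CGGAA match and no GC box, and the Fgf4 window held 2 GC boxes and no CGGAA match. The Fgfr2 window held neither motif. Of all 32851 promoters of this length, 29.9% held at least 1 CGGAA match and 35.7% at least 1 GC box. A match is thus a description of these letters and not of binding.

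Gene counts per sample ran from 17455927 to 23910943. Levels are given as counts per 1000000 gene counts (CPM), with TMM scaling of library sizes, and fold changes come from the quasi-likelihood test of edgeR. P-values were adjusted over all 15673 genes by the Benjamini-Hochberg method, and a gene was called where the adjusted p was below 0.05. The long non-coding gene ENSMUSG00000103968 at the deleted enhancer had 29 to 107 reads in each WT sample and 0 in each of the 6 KO samples, which checks the labels. A pair of WT libraries stood apart from their replicates. WT day 0 replicate 3 had 77.4 CPM of T, the primitive streak transcription factor, against 4.64 and 6.42 CPM in the other day 0 WT samples. WT day 3 replicate 3 had a summed level of 940 CPM over 10 primitive streak and mesendoderm markers against 1854 and 1644 CPM in the other day 3 WT samples, and of 352 CPM over 8 primitive and visceral endoderm markers against 88.9 and 88.7 CPM. Of these endoderm markers, Ttr was at 11.3 CPM in that library and at 0.140 and 0.433 CPM in the other 2. Values without these libraries are given beside the results that rest on them.

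Between KO and WT, the largest fold changes on both days were those of ligands. At day 0, 5 of the 10 genes passed the test, where 20.4% of all genes tested did. Fgf4, Spry2 and Etv4 were higher in KO, against 9.56% of all genes, and Fgf8 and Fgf15 were lower, against 10.9%. At day 3, 3 of the 10 passed, where 30.9% of all genes tested did, so the share is near the background. Fgf4 was higher, against 14.3% of all genes, and Fgf8 and Fgf17 were lower, against 16.7%. The median log2 fold change of the 10 genes was 0.03 at day 0 and -0.22 at day 3, against -0.0094 and -0.002 over all genes tested. The CPM of the KO and WT groups did not overlap for 6 of the 10 genes at day 0, against 34.2% of all genes, with 3 higher (16.8% of all genes) and 3 lower (17.4%). At day 3 they did not overlap for 4 of the 10, against 43.8% of all genes, with 1 higher (20.8%) and 3 lower (23%).

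**Figure D1:**
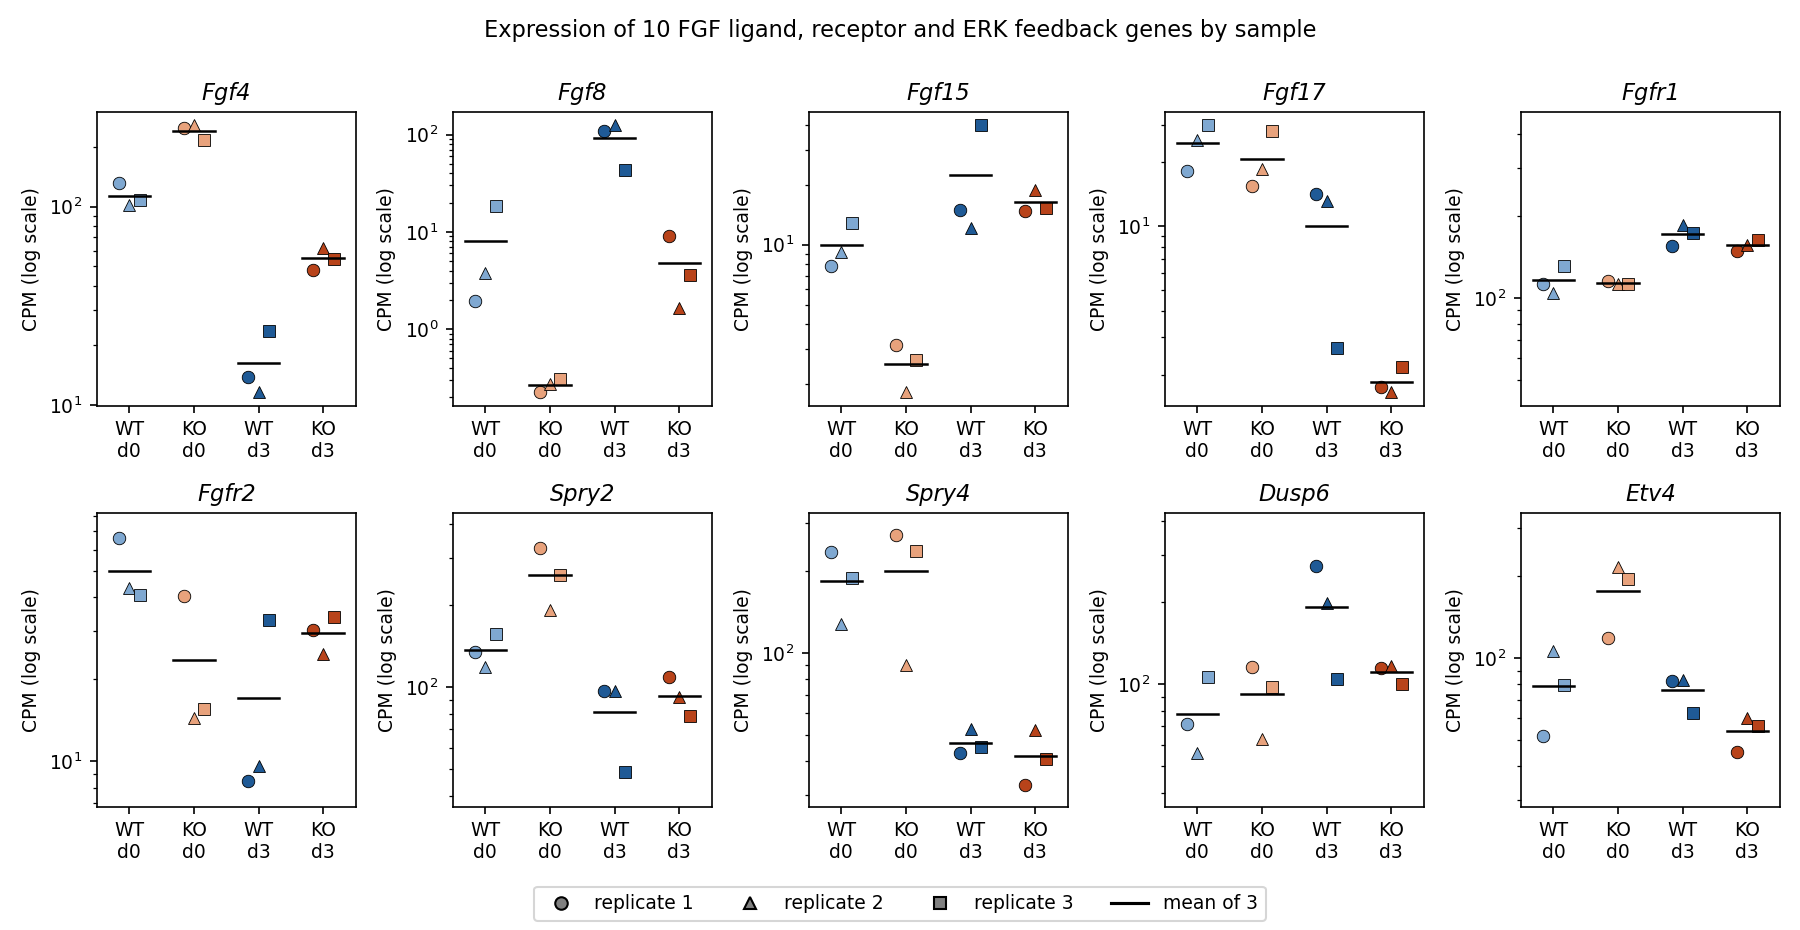
Level of each of the 10 genes in every sample, in CPM on a log axis, by genotype and day; points are the 3 replicates of a group and the bar is their mean. Fgf4 was higher and Fgf8 lower in all KO samples than in all WT samples of the same day, while the 4 groups of Fgfr1 lay between 104 and 186 CPM.

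Fgf4, an autocrine ligand of ESCs, lies on chromosome 7 from 144847367 to 144865243 on the plus strand of GRCm38 in GENCODE M21 (ENSMUSG00000050917). The RefSeq promoter window given above lies inside this span. At day 0 Fgf4 stood at 131.6, 101.6 and 107.8 CPM in WT and at 248.6, 256.5 and 216.4 CPM in KO. At day 3 it stood at 13.8, 11.6 and 23.8 CPM in WT and at 48.2, 61.8 and 54.6 CPM in KO. Every KO sample was above every WT sample of its day, and every day 3 sample was below every day 0 sample. Fgf4 was 2.12-fold higher in KO at day 0 (log2 fold change 1.09, SE 0.22, adjusted p = 0.00739) and 3.39-fold higher at day 3 (log2 fold change 1.76, SE 0.23, adjusted p = 0.000588). Both calls held under each of the other settings and with each sample left out. From day 0 to day 3 it fell 7.02-fold in WT (adjusted p = 1.37e-05) and 4.39-fold in KO (adjusted p = 3.33e-05). In these bulk samples fewer cells that express a gene and less of its RNA per cell cannot be told apart, here and below.

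Fgf8, the streak ligand, lies on chromosome 19 from 45736798 to 45742915 on the minus strand (ENSMUSG00000025219). At day 3 it stood at 109.6, 124.1 and 42.8 CPM in WT and at 8.999, 1.65 and 3.62 CPM in KO. The lowest WT sample, replicate 3, was still above the highest KO sample. Fgf8 was 21.4-fold lower in KO at day 3 (log2 fold change -4.42, SE 0.84, adjusted p = 0.0037), and the log2 fold change was -5.03 without WT day 3 replicate 3. With other single samples left out it lay between -5.59, without KO day 3 replicate 1, and -3.69, without WT day 3 replicate 2. All 10 primitive streak and mesendoderm markers were also lower in KO at day 3, where 16.7% of all genes tested were. Their sums were 77.9 to 152.4 CPM in KO and 940 to 1854 CPM in WT. The part of streak cell content in the Fgf8 level was not tested.

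At day 0 Fgf8 was low in both lines, with 1.97, 3.81 and 18.6 CPM in WT and 0.224, 0.276 and 0.306 CPM in KO. The KO values rest on 4, 5 and 6 reads. The WT mean rests on replicate 3, the library with the high T level. The log2 fold change was -4.81 (SE 1.21, adjusted p = 0.0202), and -3.13 without WT day 0 replicate 3, where the adjusted p was 0.0531. The call was also lost without KO day 0 replicate 1 (adjusted p = 0.0648), replicate 2 (adjusted p = 0.0653) or replicate 3 (adjusted p = 0.094), and with limma-voom (adjusted p = 0.102), so the day 0 difference is less certain than that at day 3. Fgf8 rose from day 0 to day 3 in both lines, 12.9-fold in WT (log2 fold change 3.69, adjusted p = 0.00445) and 16.9-fold in KO (adjusted p = 0.0178). Without WT day 0 replicate 3 the WT log2 fold change was 5.17, without WT day 3 replicate 3 it was 4.57, and over the other samples left out one at a time it was lowest without WT day 3 replicate 2, at 2.81. In KO the rise was not called without KO day 0 replicate 1 (adjusted p = 0.065), KO day 0 replicate 3 (adjusted p = 0.0627) or KO day 3 replicate 1 (log2 fold change 3.05 against 4.08, adjusted p = 0.0723), nor with limma-voom (adjusted p = 0.0768). The KO values at day 3 overlapped the WT values at day 0.

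Fgf15, the mouse counterpart of human FGF19, lies on chromosome 7 from 144896531 to 144900953 on the plus strand (ENSMUSG00000031073), 31.3 kb beyond Fgf4. At day 0 it stood at 7.86, 9.19 and 12.8 CPM in WT and at 3.14, 1.82 and 2.66 CPM in KO. The groups did not overlap, and Fgf15 was 3.86-fold lower in KO (log2 fold change -1.95, SE 0.37, adjusted p = 0.00532), a call that held with each sample left out. The neighbours Fgf4 and Fgf15 were therefore called in opposite directions at day 0. At day 3 Fgf15 stood at 15.02, 12.2 and 39.6 CPM in WT and at 14.8, 18.7 and 15.4 CPM in KO. The groups overlapped (log2 fold change -0.30, SE 0.33, adjusted p = 0.534), and without WT day 3 replicate 3 the log2 fold change was 0.23. From day 0 to day 3 Fgf15 rose 6.57-fold in KO (adjusted p = 0.000164) and 2.09-fold in WT (adjusted p = 0.0208). The WT rise was not called without WT day 0 replicate 1 (adjusted p = 0.067), WT day 0 replicate 3 (adjusted p = 0.0693) or WT day 3 replicate 3 (log2 fold change 0.49 against 1.06, adjusted p = 0.152). Gm26793 and Gm39119 overlap Fgf15 on the other strand, and the strand setting of the counting was not given in the sources used here.

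Fgf17, a close relative of Fgf8, lies on chromosome 14 from 70636203 to 70642268 on the minus strand (ENSMUSG00000022101). In day 0 ESCs it stood at 18.2, 25.6 and 29.9 CPM in WT and at 15.5, 18.6 and 28.0 CPM in KO, with overlapping groups (log2 fold change -0.24, SE 0.48, adjusted p = 0.768). In embryoid bodies it stood at 14.2, 13.1 and 2.67 CPM in WT and at 1.75, 1.65 and 2.16 CPM in KO. WT day 3 replicate 3 lay close to the KO samples, but above all 3. Fgf17 was 5.33-fold lower in KO at day 3 (log2 fold change -2.41, SE 0.56, adjusted p = 0.0101), and the log2 fold change was -3.04 without that library and -1.84 without WT day 3 replicate 1. From day 0 to day 3 Fgf17 fell 11.05-fold in KO (adjusted p = 0.000491). In WT it fell 2.45-fold at an adjusted p of 0.0492, close to the threshold. That call was lost with any of 9 single samples left out, at adjusted p up to 0.13, and without WT day 3 replicate 3 the log2 fold change was -0.68 against -1.29. Fgf8 and Fgf17 thus went opposite ways over time in both lines and were both lower in KO at day 3.

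Per kilobase of exon, a scale meant for comparing genes, the ligand RNA of the 2 lines differed in makeup. Fgf4 took 39.97 to 62.9% of the summed level of the 15 ligand genes tested in WT at day 0, and 70.9 to 81.2% in KO. At day 3 Fgf4 took 2.14 to 6.56% in WT and 25.0 to 31.7% in KO, and Fgf8 took 28.0 to 54.1% in WT and 2.00 to 11.1% in KO. The ratio of Fgf4 to Fgf8 was 0.0395 to 0.235 in WT and 2.26 to 15.8 in KO at day 3, so Fgf8 exceeded Fgf4 in every WT sample and Fgf4 exceeded Fgf8 in every KO sample. Fgf5, an epiblast ligand, took 21.9 to 36.6% in WT and 36.8 to 44.1% in KO at day 3. The summed level was higher in KO than in WT at day 0, with 95.6 to 99.5 against 64.0 to 84.4 CPM per kilobase, and lower in KO at day 3, with 54.7 to 61.0 against 113 to 179 CPM per kilobase. These shares use the union of GENCODE M21 exons as length, 3195 bases for Fgf4, and describe the values above without a further test. The authors counted reads on another annotation, so a length may include exons that were not counted, and the shares and ratios rest on that. In CPM, without these lengths, the order of Fgf4 and Fgf8 at day 3 was the same in every sample. The 15 genes include Fgf11, Fgf13 and Fgf14, intracellular relatives that do not signal through the receptors. In KO day 3 replicate 2 Fgf11 stood at 6.71 of the summed 61.0 CPM per kilobase.

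**Figure D2:**
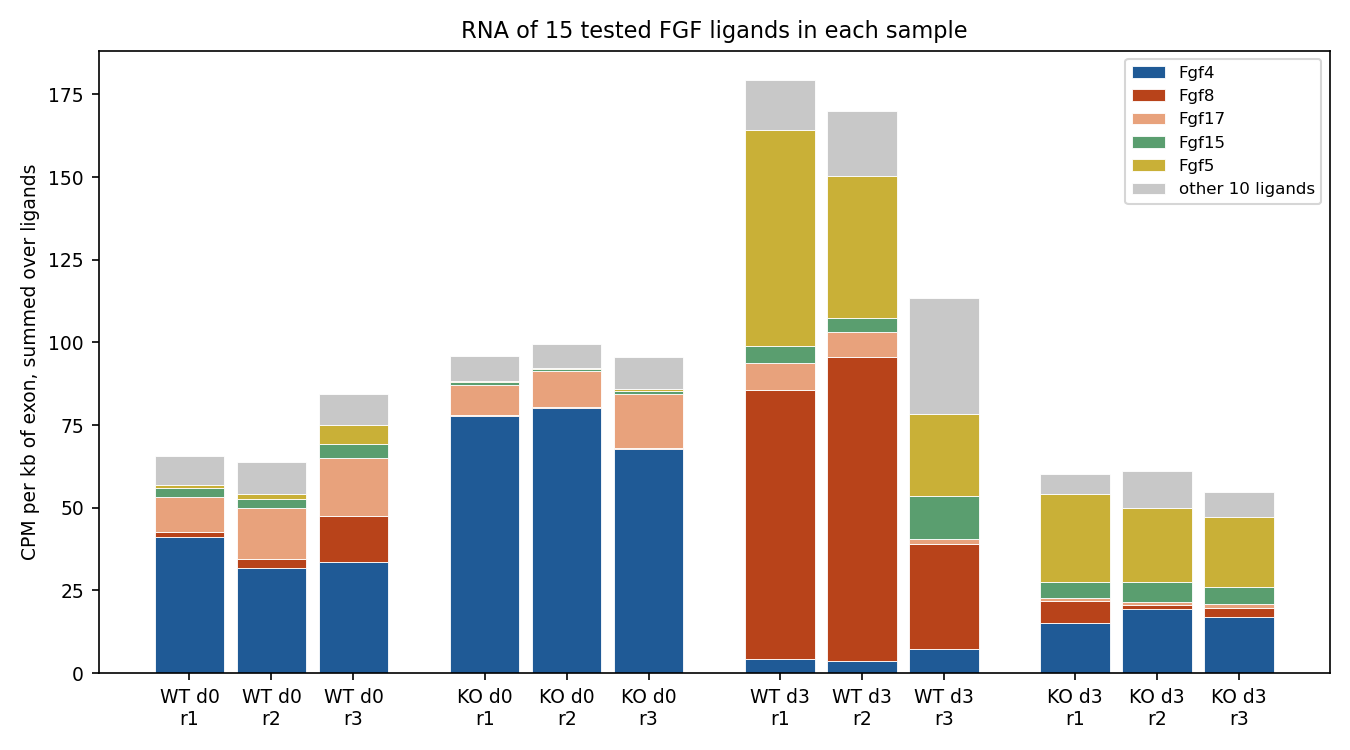
Summed level of the 15 FGF ligand genes tested in each sample, in CPM per kilobase of exon, split by ligand. In the day 3 WT bars Fgf8 takes 28.0 to 54.1% of the height, and in the day 3 KO bars 2.00 to 11.1%.

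Among the receptors, Fgfr1, the main receptor of the epiblast, had the smallest fold change between the lines of the 10 genes on both days. It lies on chromosome 8 from 25513654 to 25575718 on the plus strand (ENSMUSG00000031565), with Gm16159 on the other strand. It stood at 112.9, 104.0 and 130.9 CPM in WT and 115.2, 112.9 and 112.1 CPM in KO at day 0, and at 155.6, 186.0 and 173.2 CPM in WT and 148.4, 156.3 and 163.5 CPM in KO at day 3. The log2 fold change between KO and WT was -0.03 (SE 0.09, adjusted p = 0.864) at day 0 and -0.14 (SE 0.09, adjusted p = 0.28) at day 3, and the groups overlapped on both days. Fgfr1 rose from day 0 to day 3 by 1.48-fold in WT (adjusted p = 0.000566) and 1.37-fold in KO (adjusted p = 0.00177).

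Fgfr2, the receptor that marks primitive endoderm and trophoblast in the blastocyst, lies on the minus strand of chromosome 7 from 130162451 (ENSMUSG00000030849). RefSeq ends the gene at 130266808 and GENCODE M21 at 133123350. Of the 100-base words of the M21 gene, 1.92% are shared with Ctbp2. Reads had been counted by the authors on another annotation, an Ensembl release. The extent of Fgfr2 in that release was not checked, so the Fgfr2 counts carry that uncertainty. At day 0 Fgfr2 stood at 66.0, 43.2 and 40.7 CPM in WT and at 40.6, 14.4 and 15.6 CPM in KO. Replicate 1 was the highest of its group in both lines, and the groups did not overlap by a narrow margin. The log2 fold change was -1.14 (SE 0.48, adjusted p = 0.121), which did not pass the test. With the replicate number kept as a block within each day the adjusted p was 0.0108, and it was also below 0.05 without KO day 0 replicate 1 (log2 fold change -1.78, adjusted p = 0.043), WT day 3 replicate 1 (adjusted p = 0.0433) or WT day 3 replicate 3 (adjusted p = 0.0193).

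At day 3 Fgfr2 stood at 8.44, 9.58 and 33.1 CPM in WT and at 30.3, 24.7 and 33.9 CPM in KO. WT replicate 3 lay among the KO samples and the other 2 WT samples below them. The log2 fold change was 0.86 (SE 0.49, adjusted p = 0.206), 1.81 without WT day 3 replicate 3 (adjusted p = 0.0072), and 1.02 with the block within each day (adjusted p = 0.0195). The sum of the endoderm markers was highest in the same library, and its part in the Fgfr2 level was not tested. From day 0 to day 3 Fgfr2 fell 3.07-fold in WT (adjusted p = 0.0185), a call lost without WT day 0 replicate 2 (adjusted p = 0.0645), WT day 3 replicate 1 (adjusted p = 0.0537) or WT day 3 replicate 2 (adjusted p = 0.0749). Without WT day 3 replicate 3 the log2 fold change was -2.53 against -1.62. In KO Fgfr2 had a log2 fold change of 0.38 (SE 0.48, adjusted p = 0.519) over the same days.

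Of the 3 feedback inhibitors, Spry2 differed between the lines at day 0 and none passed the test at day 3. Spry2, which blocks the step from receptor to RAS, lies on chromosome 14 from 105891947 to 105896819 on the minus strand (ENSMUSG00000022114). At day 0 it stood at 135.2, 118.4 and 156.7 CPM in WT and at 326.5, 192.1 and 259.7 CPM in KO. The groups did not overlap, and Spry2 was 1.86-fold higher in KO (log2 fold change 0.90, SE 0.24, adjusted p = 0.0248). The call was lost without WT day 0 replicate 1 (adjusted p = 0.0889), WT day 0 replicate 2 (adjusted p = 0.0908), KO day 0 replicate 1 (adjusted p = 0.0805) or KO day 0 replicate 3 (adjusted p = 0.117). At day 3 Spry2 stood at 96.6, 97.2 and 48.8 CPM in WT and at 109.0, 92.0 and 78.2 CPM in KO, with overlapping groups (log2 fold change 0.21, SE 0.24, adjusted p = 0.536). Spry2 fell from day 0 to day 3 by 2.78-fold in KO (adjusted p = 0.000512) and 1.73-fold in WT (adjusted p = 0.0176). The WT call was lost without WT day 0 replicate 3 (adjusted p = 0.0798), and the WT log2 fold change was -0.53 against -0.79 without WT day 3 replicate 3.

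Spry4, another Sprouty brake, lies on chromosome 18 from 38586247 to 38601415 on the minus strand (ENSMUSG00000024427), with the small genes Gm27369 and Gm27804 on the other strand. At day 0 it stood at 234.6, 127.8 and 187.6 CPM in WT and at 271.2, 90.3 and 236.6 CPM in KO. Replicate 2 was the lowest in both lines, and the groups overlapped (log2 fold change 0.10, SE 0.34, adjusted p = 0.877). At day 3 it stood at 42.7, 52.5 and 45.0 CPM in WT and at 32.7, 52.1 and 40.6 CPM in KO, again with overlap (log2 fold change -0.15, SE 0.35, adjusted p = 0.776). Every day 3 sample was below every day 0 sample, and Spry4 fell 3.80-fold in WT (adjusted p = 0.00133) and 4.51-fold in KO (adjusted p = 0.000652).

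Dusp6, the cytoplasmic ERK phosphatase, lies on chromosome 10 from 99263231 to 99267489 on the plus strand (ENSMUSG00000019960). In undifferentiated ESCs it stood at 71.7, 55.8 and 106.2 CPM in WT and at 115.5, 62.9 and 97.6 CPM in KO, with overlapping groups (log2 fold change 0.21, SE 0.32, adjusted p = 0.69). At day 3 it stood at 271.3, 199.7 and 105.0 CPM in WT and at 114.9, 116.4 and 100.3 CPM in KO. WT replicate 3 lay among the KO samples and the other 2 WT samples above them. The log2 fold change was -0.77 (SE 0.32, adjusted p = 0.0915), which did not pass the test. It was -1.11 without WT day 3 replicate 3 (adjusted p = 0.00777), -0.70 with the block within each day (adjusted p = 0.0176), and DESeq2 gave an adjusted p of 0.0449. Dusp6 rose 2.42-fold from day 0 to day 3 in WT (log2 fold change 1.28, adjusted p = 0.00744), while in KO its log2 fold change was 0.30 (SE 0.32, adjusted p = 0.442). The WT groups overlapped, since replicate 3 stood at 106.2 and 105.0 CPM. The WT log2 fold change was 1.65 without WT day 3 replicate 3 and 1.66 without WT day 0 replicate 3. The call was lost with only the 6 samples compared (adjusted p = 0.0522). In the main fit Dusp6 was thus called higher at day 3 in WT, and Spry2 and Spry4 lower.

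Etv4, the PEA3-group transcription factor, lies on chromosome 11 from 101769742 to 101785371 on the minus strand (ENSMUSG00000017724). In ESCs it stood at 51.5, 105.9 and 79.5 CPM in WT and at 118.9, 215.3 and 194.6 CPM in KO. Every KO sample was above every WT sample, and within each line replicate 1 was the lowest and replicate 2 the highest. Etv4 was 2.25-fold higher in KO at day 0 (log2 fold change 1.17, SE 0.19, adjusted p = 0.00288), a call that held under each of the other settings. The summed level of 9 markers of the feeder fibroblasts on which ESCs are grown followed the same order of replicates, with 97.6, 279 and 151 CPM in WT and 144, 380 and 237 CPM in KO. None of the 8 feeder markers tested was called between the lines at day 0, and the part of feeder RNA in the Etv4 level was not tested.

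At day 3 Etv4 stood at 82.2, 83.4 and 62.9 CPM in WT and at 45.1, 60.4 and 56.3 CPM in KO. All KO samples were now below all WT samples, but the log2 fold change of -0.53 (SE 0.19, adjusted p = 0.0626) did not pass the test. It passed with the block within each day (adjusted p = 0.00666), with DESeq2 (adjusted p = 0.0434) and without WT day 3 replicate 3 (log2 fold change -0.68, adjusted p = 0.0331). From day 0 to day 3 Etv4 fell 3.21-fold in KO (adjusted p = 5.93e-05), while its log2 fold change in WT was 0.01 (SE 0.19, adjusted p = 0.96).

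The difference between the KO effect at day 3 and that at day 0 was tested as an interaction. It passed for 2 of the 10 genes, Fgf15 and Etv4, where 15.5% of all genes tested passed, 8.21% with a higher and 7.34% with a lower KO effect at day 3. The KO effect on Etv4 was lower at day 3 than at day 0 by a log2 difference of -1.70 (SE 0.27, adjusted p = 0.00358), and that on Fgf15 was higher by 1.65 (SE 0.49, adjusted p = 0.0483). Fgfr2 had a log2 difference of 2.00 (SE 0.68, adjusted p = 0.0727) and Fgf17 one of -2.17 (SE 0.73, adjusted p = 0.0718). These come from a replicate block shared by both days. With the block within each day, Fgfr2 (adjusted p = 0.00396) and Fgf17 (adjusted p = 0.0236) passed. So did Dusp6 (log2 difference -0.94, adjusted p = 0.0318) and Spry2 (-0.65, adjusted p = 0.0375), and the calls of Fgf15 and Etv4 held. Without WT day 3 replicate 3 the test passed for 7 of the 10 genes. The share of all genes passing was not computed for that fit or for the block within each day. The 15.5% belongs to the main fit and cannot be set beside the genes passing in these other fits. For Fgf8 the difference was 0.39 with an SE of 1.58, too wide to tell whether its KO effect changed between the days.

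**Figure D3:**
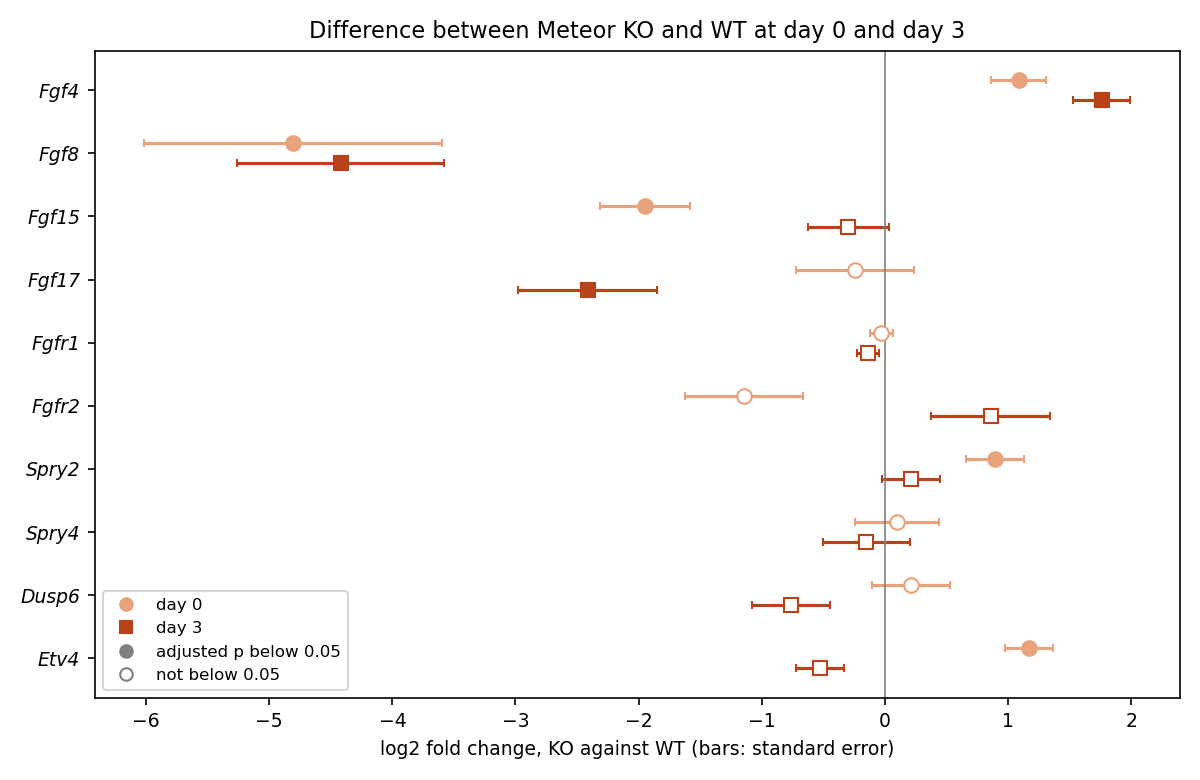
log2 fold change of KO against WT for each of the 10 genes at day 0 and day 3, with bars of 1 standard error from the edgeR fit and filled points where the test passed. Etv4 lies at 1.17 at day 0 and -0.53 at day 3, and Fgf8 lies below -4 on both days.

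Over time, 9 of the 10 genes passed the test in WT, where 56.2% of all genes did, and 8 of the 10 in KO, where 56.6% did. In WT 4 rose (Fgf8, Fgf15, Fgfr1 and Dusp6), against 30.7% of all genes, and 5 fell (Fgf4, Fgf17, Fgfr2, Spry2 and Spry4), against 25.5%. In KO 3 rose (Fgf8, Fgf15 and Fgfr1), against 29.4%, and 5 fell (Fgf4, Fgf17, Spry2, Spry4 and Etv4), against 27.2%. The median log2 fold change of the 10 genes was -0.39 in WT and -0.59 in KO, against 0.07 and 0.03 over all genes tested. These comparisons share samples with those between the lines.

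The rest of the pathway was described by a list of 76 genes that includes the 10, of which 58 others were tested. At day 0, 4 of the 58 were higher in KO and 8 lower, and at day 3, 8 were higher and 8 lower. Both shares, 12 and 16 of 58, lie near the 20.4% and 30.9% of all genes. By direction, 9.56% of all genes were higher and 10.9% lower at day 0, and 14.3% and 16.7% at day 3. The counts by class below are to be read beside these shares. Over the whole list the median log2 fold change was -0.01 at day 0 and -0.14 at day 3.

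The ligand class was the one with most lower calls, and it includes Fgf11, Fgf13 and Fgf14, which do not signal through the receptors. At day 0, 5 of 15 ligands tested were lower, against 10.9% of all genes, and 1 was higher, against 9.56%. At day 3, 6 were lower, against 16.7%, and 1 higher, against 14.3%. Of the 11 tested that are not among the 10 genes, 3 were lower at day 0 and 4 at day 3, and 0 were higher on either day. Fgf3 and Fgf10 were called at day 3 but not at day 0. Fgf3 stood at 8.53, 5.68 and 36.2 CPM in WT and 0.650, 1.08 and 0.708 CPM in KO at day 3 (log2 fold change -4.06, SE 0.57, adjusted p = 0.000771), and the difference between the days was itself called (log2 difference -4.47, adjusted p = 0.00565). Fgf10 stood at 16.4, 14.6 and 48.2 CPM in WT and 1.10, 1.36 and 0.874 CPM in KO at day 3 (log2 fold change -4.43, SE 0.43, adjusted p = 0.00014), and here too the difference between the days was called (log2 difference -4.45, adjusted p = 0.00164). Both were highest in WT day 3 replicate 3, the WT library of that day in which Fgf8 and Fgf17 were lowest. Without it the day 3 log2 fold changes were -3.30 for Fgf3 (adjusted p = 0.00131) and -3.85 for Fgf10 (adjusted p = 0.000156), and both calls held with every other sample left out. Fgf5 was lower in KO at day 0, with 2.51, 3.44 and 14.0 CPM in WT and 0.392, 0.386 and 1.07 CPM in KO (log2 fold change -3.34, SE 0.79, adjusted p = 0.0152), and its log2 fold change at day 3 was -0.95 (SE 0.50, adjusted p = 0.178). Without WT day 0 replicate 3 the day 0 log2 fold change of Fgf5 was -2.10 (adjusted p = 0.0417), and the call was lost without KO day 0 replicate 1 (adjusted p = 0.055), replicate 2 (adjusted p = 0.0607) or replicate 3 (adjusted p = 0.0501). Fgf13 and Fgf14, intracellular relatives that do not signal through the receptors, were lower at day 0 by log2 fold changes of -1.49 (adjusted p = 0.00254) and -2.38 (adjusted p = 0.00995). Fgf14 was also lower at day 3 (log2 fold change -1.53, adjusted p = 0.0111), a call lost without KO day 3 replicate 1 (adjusted p = 0.0501) or KO day 3 replicate 2 (adjusted p = 0.0626). Fgf16 was called lower too, but its WT reads of 2, 3 and 41 rest on WT day 3 replicate 3, without which it did not pass the filter.

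Of the 6 receptor and co-receptor genes tested, Fgfr3 was called at day 0, with 7.48, 3.29 and 3.70 CPM in WT and 22.7, 22.8 and 18.6 CPM in KO (log2 fold change 2.17, SE 0.60, adjusted p = 0.0297), and none was called at day 3. The Fgfr3 call was lost without WT day 0 replicate 2 (adjusted p = 0.109), WT day 0 replicate 3 (adjusted p = 0.123), KO day 0 replicate 1 (adjusted p = 0.102) or KO day 0 replicate 2 (adjusted p = 0.113). Among 18 adaptor and kinase genes between receptor and ERK, 1 was higher and 1 lower at day 0, the latter being Mapk3 (log2 fold change -0.56, SE 0.14, adjusted p = 0.0226), which encodes ERK1. At day 3, 4 of the 18 were higher and 1 was lower. Gab1, a docking protein for receptor signals, stood at 90.9, 95.1 and 119.2 CPM in WT and at 151.0, 171.0 and 177.6 CPM in KO at day 3 (log2 fold change 0.71, SE 0.13, adjusted p = 0.0029). Hras was higher by a log2 fold change of 0.70 (adjusted p = 0.00152) and Ptpn11, a phosphatase that promotes RAS activation, was lower by -0.28 (adjusted p = 0.037). The Gab1 and Hras calls held with each sample left out. The Mapk3 call was lost without any of 5 day 0 samples, KO day 0 replicate 1 being the exception (adjusted p up to 0.106), and the Ptpn11 call without any of 7 samples (adjusted p up to 0.215).

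The feedback and target classes moved both ways. Of 16 feedback inhibitors, Spry2 and Spred1 (log2 fold change 0.60, adjusted p = 0.00652) were higher in KO at day 0. The phosphatase genes Dusp2 (-1.91, adjusted p = 0.0177) and Dusp4 (-1.57, adjusted p = 0.00485) and the Sprouty relative Spred2 (-0.36, adjusted p = 0.0204) were lower. At day 3 Spred3, Spry1 and Dusp7 were higher by log2 fold changes of 0.75, 0.70 and 0.56 (adjusted p = 0.0155, 0.0208 and 0.0177), and Il17rd and Nf1, a brake on RAS, were lower, the latter by a log2 fold change of -0.57 (adjusted p = 0.00177). Il17rd, a membrane inhibitor of FGF signalling also known as Sef, stood at 332.4, 284.6 and 179.3 CPM in WT and 110.0, 87.2 and 88.6 CPM in KO at day 3 (log2 fold change -1.49, SE 0.27, adjusted p = 0.00287). With single samples left out, the calls of Spred1 and Dusp4 at day 0 and of Il17rd and Nf1 at day 3 held. Those of Dusp2 and Spred2 at day 0 were lost without WT day 0 replicate 3 (adjusted p = 0.0812 and 0.087) and those of Spred3 and Dusp7 at day 3 without WT day 3 replicate 3 (adjusted p = 0.053 and 0.0579). Without KO day 0 replicate 2 (adjusted p = 0.0536 and 0.0977), and for Dusp2 also without KO day 0 replicate 3 (adjusted p = 0.101), those of Dusp2 and Spred2 were again lost. Without KO day 3 replicate 1 those of Spred3 and Dusp7 were lost (adjusted p = 0.0796 and 0.0657), and without KO day 3 replicate 2 those of Dusp7 and Spry1 (adjusted p = 0.068 and 0.107). The Spry1 call was also lost without WT day 3 replicate 1 (adjusted p = 0.0739) or KO day 3 replicate 3 (adjusted p = 0.0515). Of 13 ERK target genes, Etv4 and Etv1 (log2 fold change 0.90, adjusted p = 0.0418) were higher at day 0. Egr1, an immediate early gene, was lower on both days, by log2 fold changes of -1.09 (adjusted p = 0.0169) and -1.28 (adjusted p = 0.00722). With single samples left out the Egr1 call at day 3 held, that at day 0 was lost without any of 5 day 0 samples, WT day 0 replicate 1 being the exception (adjusted p up to 0.0941), and that of Etv1 was lost without any of 7 samples (adjusted p up to 0.176). At day 3 Etv5 was the gene of this class called higher, with each sample left out as well. Etv5, like Etv4 a gene of the PEA3 group, stood at 200.7, 186.2 and 143.3 CPM in WT and 263.2, 290.0 and 285.4 CPM in KO at day 3 (log2 fold change 0.67, SE 0.11, adjusted p = 0.0021). Its KO effect rose between the days (log2 difference 0.81, adjusted p = 0.00871), whereas that of Etv4 fell.

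**Figure D4:**
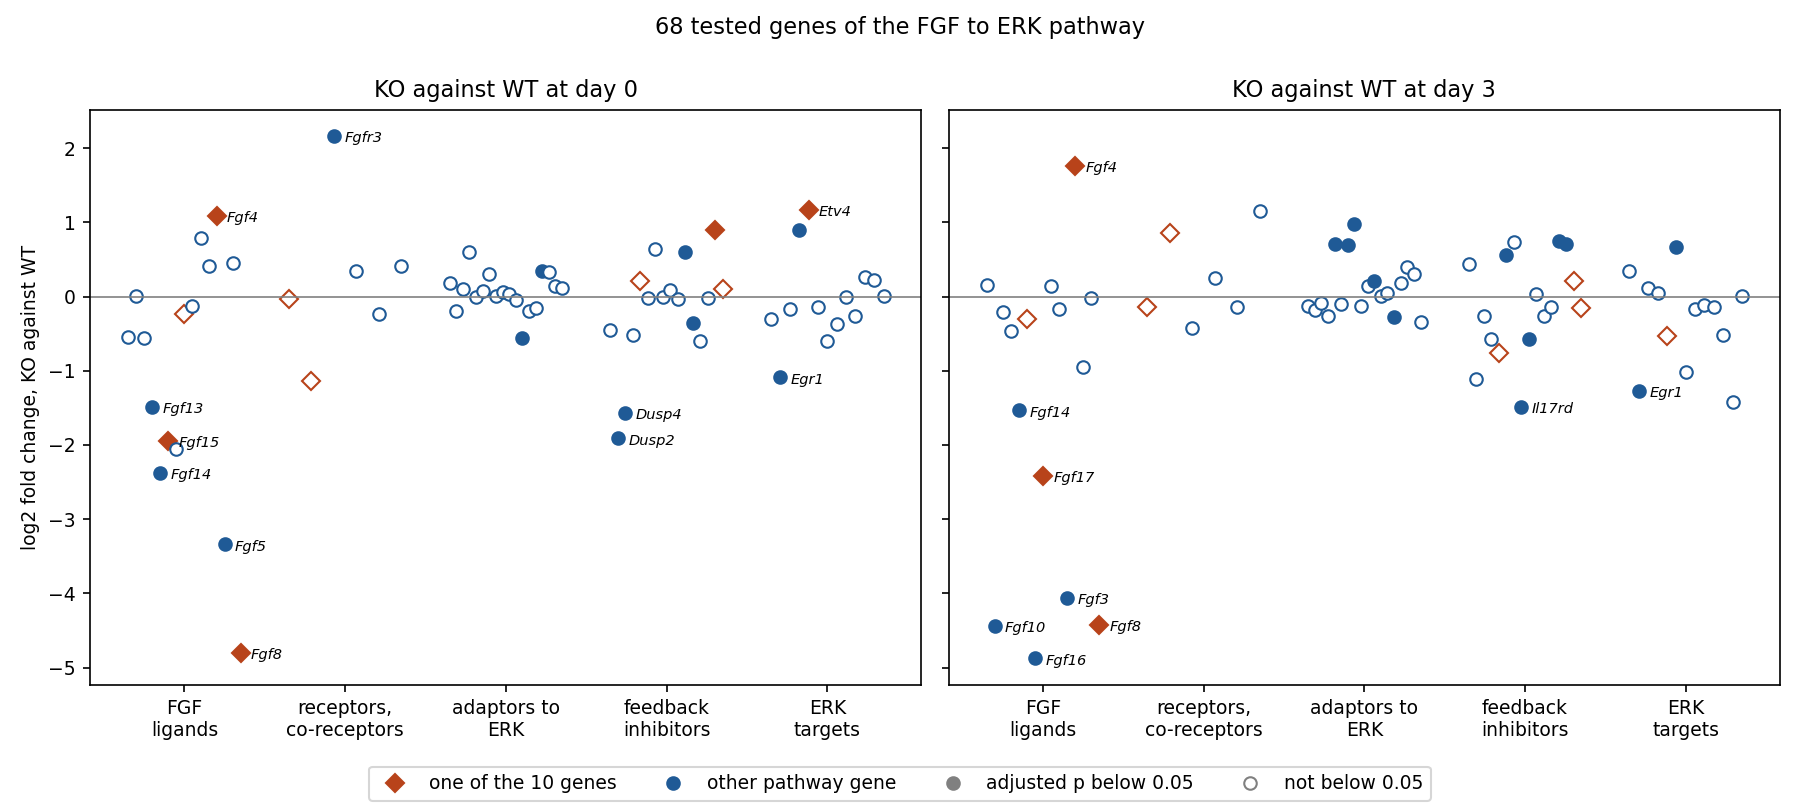
log2 fold change of KO against WT at day 0 and day 3 for the tested genes of the FGF pathway list, by class; filled points passed the test at an adjusted p below 0.05. Of the 15 ligands, 6 were lower at day 3, with Fgf8, Fgf3, Fgf10 and the barely detected Fgf16 below -4.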

How the data were processed

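RNA was sequenced as single-end 100-base reads from poly(A) RNA. Per the study's methods and the labels, the authors trimmed reads with Cutadapt 1.3, aligned them with STAR 2.4.2a to GRCm38, and counted them per Ensembl gene with htseq-count 0.6.1. The deposited values are raw counts, 1 table per sample; 5 summary rows per table were left out. Depth limits low genes such as Fgf8 in KO at day 0.

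Counts were fitted with edgeR 4.0.16 (quasi-likelihood test, TMM, genes over 1 CPM in at least 1 sample) on all 12 samples, with group and replicate number as terms, the number standing for the batch factor of the study's own model. SE is the log2 fold change divided by the square root of the F statistic. Scripts were tested on simulated data. The alternatives were limma 3.58.1, DESeq2 1.42.0, other filters, normalization, samples and blocks, and 1 setting, without replicate 3 of both WT days, chosen after seeing the data. Same-numbered samples deviated together within a day (6 pairs, r 0.323 to 0.692, over 12659 genes) but not across days (mean r -0.054), so the numbers pair samples within a day. No 2 libraries of the same group were duplicates, since counts of replicates differed beyond sampling noise. Libraries of different groups were not compared in this way.

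Genes named were the 10 members, genes of the pathway list called between the lines, and the 3 genes most alike to a member by Pearson's r. The members, lists and tests were chosen with earlier results of these data known. GENCODE M21 and RefSeq gave positions, exon lengths and promoters, whereas the authors had counted reads on the Ensembl release named in their methods. Of the pathway genes, Fgf6, Fgf9, Fgf12, Fgf20, Fgf21, Fgf22, Fgf23 and Kl did not pass the filter. Some genes of this list are not reported here.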

Additional observations from a re-analysis of the deposited data

Results flagged for a closer look

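The KO effect differed between the days, by the interaction test in edgeR over all 15673 genes, for 2 of the 10 genes. For Etv4 the log2 fold change of KO against WT was 1.17 at day 0 and -0.53 at day 3, a difference of -1.70 (SE 0.27, adjusted p = 0.00358), with all 3 KO samples above all WT samples at day 0 and below them at day 3. The call held under each of the other settings. For Fgf15 the log2 fold change was -1.95 at day 0 and -0.30 at day 3, a difference of 1.65 (SE 0.49, adjusted p = 0.0483). KO samples lay below all WT samples at day 0 and among them at day 3. The Fgf15 call was lost in 12 of the 20 other fits and kept in 8, which include the fits without WT day 3 replicate 3 (adjusted p = 0.00576) and without replicate 3 of both WT days (adjusted p = 0.0135). Among the 12 were the fit with no replicate block (adjusted p = 0.0951), limma-voom (adjusted p = 0.0856) and 9 of the 12 fits that left out a single sample (adjusted p up to 0.14). No group had more than 3 samples, so no sample was tested as an outlier.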

How the results depend on the processing

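With the replicate block left out, 1 of the 10 genes passed the interaction test. With the replicate block kept within each day, which is what the pairing check bears on, 6 of the 10 genes were called between the lines at day 3, 6 in the interaction, and 26, 33 and 28 of the 68 pathway genes at day 0, at day 3 and in the interaction, against 17, 19 and 12. With only the 6 samples compared, 6 of the 10 were called at day 3 and 26 and 36 pathway genes at day 0 and day 3. DESeq2 called 5 of the 10 at day 3. With no filter 5 were called at day 3 and 4 in the interaction, and with at least 10 counts in every sample 1 in the interaction. Without replicate 3 of both WT days 6 were called at day 3 and 7 in the interaction. With single samples left out, the members called were 3 to 6 at day 0, 3 to 6 at day 3, 1 to 7 in the interaction, 6 to 9 over time in WT and 7 to 8 in KO, and pathway genes 9 to 19 at day 0, 14 to 21 at day 3 and 8 to 17 in the interaction. The share of all genes called was not computed for these other fits. The counts therefore describe the settings and are no result about the 10 genes or the pathway. The cause of these shifts was not tested.

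Directions turned only for values that passed no test. Etv4 over time in WT (0.013) was -0.053 with no replicate block, -0.03 with limma-voom, -0.035 with DESeq2, -0.037 with RLE normalization, -0.061 with only the 6 samples, and -0.287 to 0.155 with single samples left out. The Fgf8 interaction (0.39) was -0.085 with limma-voom, -1.27 without replicate 3 of both WT days and -1.08 to 1.21 with single samples left out. Without replicate 3 of both WT days Fgfr1 at day 0 was 0.048, Fgf15 and Spry2 at day 3 were 0.273 and -0.026, and Etv4 over time in WT was 0.17. With single samples left out, log2 fold changes at day 0 ran from -0.22 to 0.48 for Spry4, -0.67 to 0.03 for Fgf17 and -0.12 to 0.051 for Fgfr1. At day 3 they ran from -0.60 to 0.16 for Spry4, -0.61 to 0.23 for Fgf15 and -0.041 to 0.502 for Spry2. The Spry4 interaction ran from -0.667 to 0.084, and Fgfr2 over time in KO from -0.001 to 0.983.

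Fgf8 in KO at day 0 rests on at most 6 reads a library.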

Other observations

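The genes whose log2 CPM over the 12 samples was most like a member's, of 14176 searched, were for Fgf4 Plk3, Nr0b1 and Pstpip1 (Pearson's r 0.986, 0.984 and 0.982) and for Fgf8 T, Wnt3 and Msl1 (r 0.985, 0.982 and 0.981). Nr0b1 is a nuclear receptor of undifferentiated ESCs, and T and Wnt3 are made in the primitive streak. For Fgf15 they were Krt18, Crispld1 and Mfap4 (r 0.976, 0.975 and 0.966), for Fgfr1 Fzd3, Smad4 and Ssh3 (r 0.986, 0.983 and 0.98), and for Fgfr2 Gabrp, Ptch1 and Crip1 (r 0.957, 0.909 and 0.899). For Fgf17 they were Npr1, Cnpy1 and Zfp473 (r 0.959, 0.957 and 0.95), for Spry2 Trak1, Mfsd14a and Pdcd6 (r 0.948, 0.94 and 0.938), for Spry4 Plekhm1, Htr1b and Suz12 (r 0.968, 0.962 and 0.961), and for Etv4 Selp, Pmepa1 and Prrx2 (r 0.945, 0.937 and 0.93). The closest match of Dusp6 was Tmem243 (r 0.911), the lowest first match of the 10 genes. Among the members themselves Fgf4 and Fgf8 ran most opposite (r -0.922). The 12 samples share 2 lines and 2 days, so these values describe the 4 groups and carry no test.

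Fgf4 and Fgf15 sit in a cluster on chromosome 7, with Fgf3 2.9 kb before the GENCODE start of Fgf4 and Ccnd1 29.0 kb beyond Fgf15. Fgf3 and Ccnd1 are named here for their position. The RefSeq promoter window of Fgf4, from 144861136 to 144861435, lies inside the GENCODE gene, so Fgf3 is farther from the RefSeq start. At day 0 Fgf4 was higher in KO, Fgf15 was lower, and Fgf3 and Ccnd1 had log2 fold changes of 0.41 (SE 0.55, adjusted p = 0.652) and -0.30 (SE 0.19, adjusted p = 0.317).

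The marker counts stand beside 9.56% of all genes called higher and 10.9% lower in KO at day 0, and 14.3% and 16.7% at day 3. Of the marker lists, 6 of 6 formative epiblast genes were lower in KO at day 0, and at day 3, 3 were higher and 1 lower. Of 7 pluripotency genes 2 were higher at day 0, and at day 3, 3 were higher and 1 lower. Of 7 neuroectoderm markers 4 were lower and 0 higher at day 0. At day 3, 4 were higher and 1 lower, with sums of 104 to 128 CPM in KO and 101 to 178 CPM in WT. Of the 8 primitive and visceral endoderm markers 1 was called at day 0, Lama1, although their sum was 240 to 301 CPM in KO and 84.0 to 147 CPM in WT, of which Lama1 made up most. At day 3, 3 of these 8 were lower in KO and 0 higher.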
